A study of Rattus norvegicus with 8 samples.

Results

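Genes of mitosis and DNA replication were followed in the somatic and process compartments of rat hippocampal neuron cultures under picrotoxin (PTX). The set holds 41 genes chosen by symbol, of which 28 act in mitosis, 5 encode condensin subunits and 8 act in DNA replication. The count table has 28909 symbols and holds 40 of the 41, and Ccnb2 was not analysed here. All 40 were among the 14309 genes that were tested, for which over 20 reads were required in at least 2 libraries. Primary hippocampal neurons of Sprague-Dawley rats had been cultured on porous inserts. By the study's account, somata stay above the membrane, whose pores measure 1 µm, and only processes reach its underside. RNA was isolated from the upper (somata) and the lower (processes) side, and total RNA was sequenced after ribosomal depletion. PTX blocks the GABA-A receptor and thereby raises network activity; treated cultures received 100 µM for 48 h, between day in vitro 18 and 20, and control cultures received the ethanol vehicle. Somata control, somata PTX, processes control and processes PTX had 2 libraries each, 8 in all. By that account the process side holds axons and dendrites together, but markers of other cell types were measured there too, as given below. Libraries are numbered 1 and 2 in each group, and since the labels do not say whether they stem from separate cultures, p-values measure the spread between these libraries, which may be technical.

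In a dividing cell, replication genes are transcribed as the cell prepares for and enters S phase, largely under E2F factors. Mitotic genes peak later under the MuvB complex with B-Myb and FoxM1. In cells that have left the cycle, pocket proteins and the DREAM complex keep both groups low. Mature neurons no longer divide, whereas glia and progenitors in a culture can, and a few mitotic proteins such as Cdc20 also have roles in neurites.

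Library totals ranged from 12290890 to 18455662 counts, but the depth left for nuclear genes differed between compartments. Genes of the mitochondrial genome took 22.6% to 26.7% of the counts in somata and 68.5% to 72.5% in processes. All other genes shared 9517542 to 11227599 counts in each somata library and 4702054 to 5491237 in each processes library. The median over the set was 127 and 160.5 reads in somata control and 206 and 224 reads in somata PTX. In processes it was 47 and 53.5 reads in control and 87.5 and 113.5 in PTX. Counts below 30 were found for 13 and 9 of the 40 genes in the processes control libraries, against 3 and 2 in the processes PTX libraries. The lowest counts in processes control were 9 reads for Plk1 in replicate 1 and 10 reads for Spc25 in replicate 2, so single genes of the set are measured least precisely there. Levels below are CPM, counts scaled to library size with TMM factors, and are compared between libraries, not between genes, because no gene lengths were used.

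Summed over the 40 genes, the level was 372 and 408 CPM in somata control and 444 and 599 CPM in somata PTX. In processes it was 456 and 562 CPM in control and 820 and 888 CPM in PTX. Both PTX libraries lay above both control libraries in each compartment, and the gap was wider in processes. In bulk libraries, a different number of cells that hold a transcript and a different amount of it per cell cannot be told apart.

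Tested gene by gene with edgeR's quasi-likelihood (QL) test and Benjamini-Hochberg adjustment over all 14309 genes, 14 of the 40 rose in processes under PTX and 0 fell, against 1.64% of all tested genes that rose and 2.1% that fell. In somata 3 of the 40 rose and 0 fell, against 2.09% and 1.5% of all tested genes. Those 3, Cdk1, Prc1 and Tpx2, are also among the 14. The median log2 fold change of the 40 genes was 0.77 in processes and 0.45 in somata, beside -0.01 for all tested genes in either compartment. Estimates were above 0 for 39 genes in processes and 37 in somata. For 37 genes both processes PTX libraries exceeded both control libraries, as did 20.1% of all tested genes; in somata this held for 28 genes and 24% of all tested genes. The 2 PTX effects share no libraries, but they were fitted in 1 model. Replicate differences also correlated between the compartments (r from 0.288 to 0.367 across tested genes), so the 2 effects are not shown to be independent. With the replicate number as a block, 25 genes rose in processes and 19 rose and 1 fell in somata, while 5.1% of all tested genes rose and 6.09% fell in processes, and 7.21% rose and 6.79% fell in somata.

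**Figure D1:**
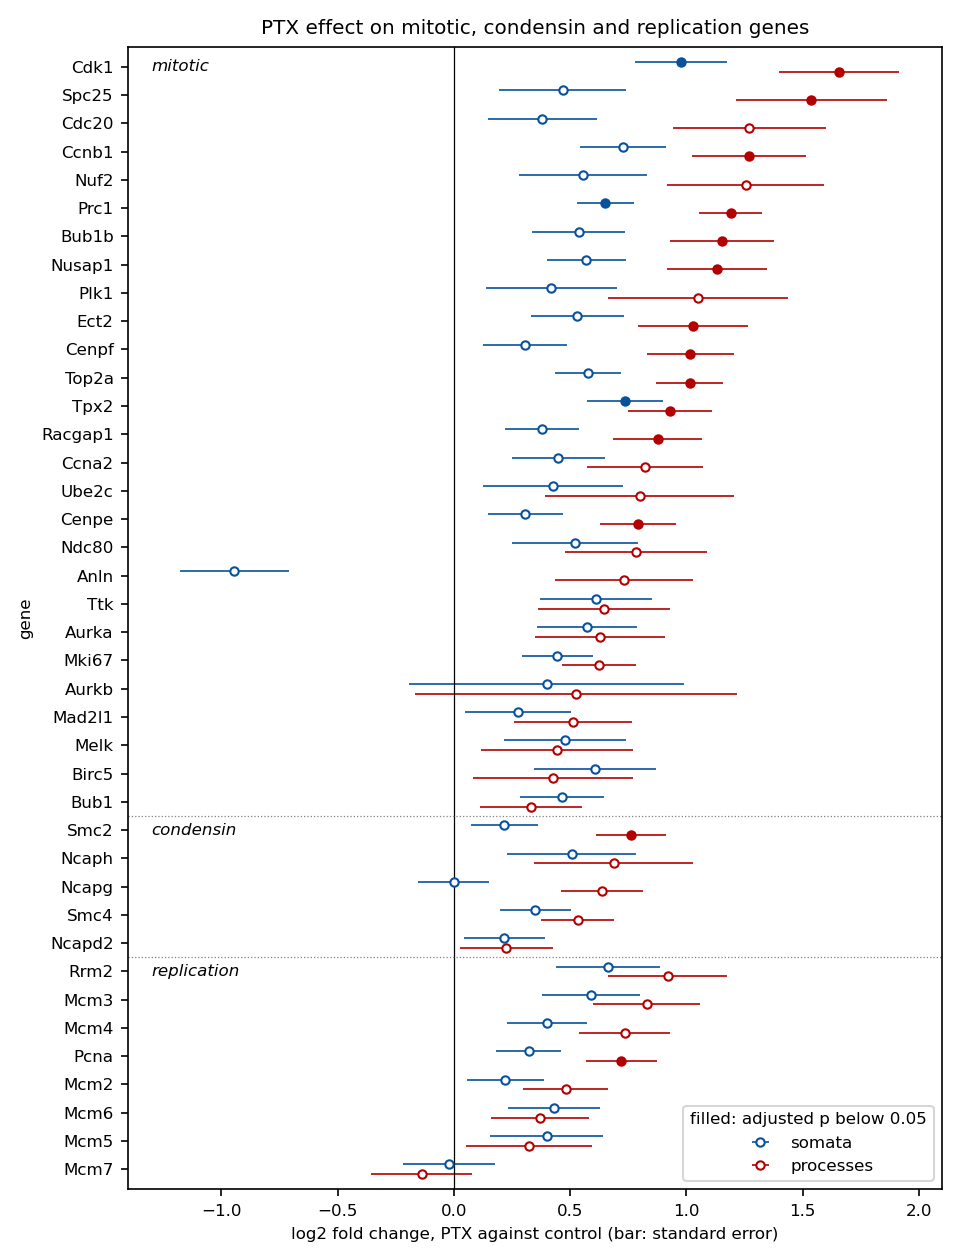
Log2 fold change under PTX (x axis) of the 40 genes, grouped as mitotic, condensin and replication genes, in somata (blue) and processes (red), with bars of 1 standard error; filled points have an adjusted p below 0.05 in edgeR's quasi-likelihood test. Red points lie right of 0 for 39 genes and are filled for 14, and Anln is the gene with the lowest value in somata, -0.94.

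These counts depend on single libraries. Leaving out processes control replicate 1 kept 1 of the 14 calls, Prc1, and leaving out processes control replicate 2 gave 8 calls, of which 7 were among the 14. Without processes PTX replicate 1, and likewise without processes PTX replicate 2, 3 of the 14 remained, in both cases with Prc1 and Top2a among them. Prc1 was called in processes in every such fit. The loss was general: over all tested genes the number that rose went from 235 to 57 and 114 without processes control replicate 1 or 2, and to 77 and 107 without processes PTX replicate 1 or 2. In somata 0 genes were called without control replicate 1, control replicate 2 or PTX replicate 2, and without PTX replicate 1 Prc1 lost the call. Over all tested genes the 299 that rose in somata became 135, 66 and 160 without control replicate 1, control replicate 2 or PTX replicate 2, and 109 without PTX replicate 1. In these fits the lone library of a group is assumed to vary like the other groups. Estimates remained above 0 for 38 to 40 genes in processes in every such fit, and the number above 0 in somata fell to 31 without somata PTX replicate 2.

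By class, 12 of 27 mitotic genes, 1 of 5 condensin genes and 1 of 8 replication genes rose in processes. Their median log2 fold changes were 0.88, 0.64 and 0.60, with ranges of 0.33 to 1.66 for mitotic, 0.23 to 0.76 for condensin and -0.14 to 0.92 for replication genes. In somata 3 mitotic genes, 0 condensin and 0 replication genes rose, and the medians were 0.48, 0.22 and 0.40. Summed mitotic levels were 263 and 328 CPM in processes control and 537 and 549 CPM in processes PTX. Condensin levels summed to 83.3 and 106 CPM in control and 135 and 149 CPM in PTX, and replication levels to 110 and 128 CPM in control and 148 and 190 CPM in PTX. All 3 classes were thus without overlap between control and PTX in processes. The condensin call, Smc2, and the replication call, Pcna, were each lost without processes control replicate 1 and without processes PTX replicate 2. A difference between classes was not tested.

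Among cyclins and their kinase, Cdk1 and Ccnb1 rose in processes and Ccna2 did not pass the test. Cdk1, the kinase that starts mitosis, was at 2.68 and 2.82 CPM (24 and 24 reads) in processes control and at 9.88 and 7.54 CPM (86 and 75 reads) in processes PTX. Its log2 fold change of 1.66 (SE 0.26, QL adjusted p = 0.00692) was the highest of the set. The PTX libraries stood clear of the controls, but they differed more from each other than the 2 controls did. In somata Cdk1 was at 4.08 and 4.19 CPM in control and 6.98 and 9.36 CPM in PTX, a log2 fold change of 0.98 (SE 0.20, QL adjusted p = 0.0221). Ccnb1, the cyclin that activates Cdk1, went from 2.57 and 3.76 CPM to 7.35 and 7.84 CPM in processes, a log2 fold change of 1.27 (SE 0.25, QL adjusted p = 0.0203). In somata it was at 5.31 and 5.25 CPM in control and 7.73 and 9.82 CPM in PTX, again without overlap, but with a QL adjusted p of 0.0599 and 0.00188 with the replicate block. Ccna2, the cyclin of S and G2 phase, had log2 fold changes of 0.82 in processes and 0.45 in somata and passed in neither; with the block its adjusted p in processes was 0.0278.

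The 5 mitotic kinases had 0 calls in either compartment, with a median log2 fold change of 0.63 in processes and 0.48 in somata. Plk1, which drives entry into and passage through mitosis, had 9 and 17 reads in processes control and 23 and 35 in processes PTX, and its log2 fold change of 1.05 had a standard error of 0.39. Aurkb, the kinase of the chromosomal passenger complex, was set apart by its replicates. It had 131 and 413 reads in somata control, 209 and 508 in somata PTX, 39 and 135 in processes control and 83 and 190 in processes PTX. In each group replicate 2 was far above replicate 1, and control and PTX overlapped in both compartments. Its standard error, 0.59 in somata and 0.69 in processes, exceeded the log2 fold changes of 0.40 and 0.52. With the replicate block, which takes this difference out, the adjusted p of Aurkb was 0.0446 in somata and 0.0492 in processes. Aurka, which acts at the spindle poles, and the kinases Ttk and Melk had log2 fold changes between 0.45 and 0.64 in processes, and Ttk was called in somata with the block alone (adjusted p = 0.0202).

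Of the 5 genes of the spindle checkpoint and of the ubiquitin ligase APC/C, Bub1b rose in processes. Bub1b, which holds back the APC/C until chromosomes are attached, was at 5.46 and 4.46 CPM in processes control and 11.7 and 10.5 CPM in PTX, with a log2 fold change of 1.15 (SE 0.22, QL adjusted p = 0.0205). Cdc20, the activator that the checkpoint restrains, had 18 and 21 reads in processes control and 43 and 58 in PTX; its log2 fold change of 1.27 had a standard error of 0.33 and a QL adjusted p of 0.0638, or 0.00255 with the replicate block. The checkpoint genes Bub1 and Mad2l1 and the ubiquitin-conjugating enzyme Ube2c lay between 0.33 and 0.80 in processes and were not called. In somata Bub1 and Bub1b were called with the block alone (adjusted p = 0.0453 and 0.0492).

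Kinetochore genes, whose products join chromosomes to spindle microtubules, rose in processes in 3 of 5 cases. Cenpf was at 29.8 and 38.4 CPM in processes control and at 73.8 and 64.3 CPM in PTX. Its log2 fold change was 1.02 in processes (SE 0.19, QL adjusted p = 0.0162). In somata the levels were 21.8 and 22.6 CPM in control and 22.2 and 32.8 CPM in PTX, so that PTX replicate 1 lay between the controls and the log2 fold change of 0.31 did not pass. Cenpe, a kinesin that aligns chromosomes, was at 18.5 and 25.4 CPM in processes control and 37.1 and 38.8 CPM in PTX, a log2 fold change of 0.79 (SE 0.16, QL adjusted p = 0.0266). Spc25, a subunit of the Ndc80 complex, rested on few reads, 19 and 10 in processes control and 40 and 50 in PTX, with a log2 fold change of 1.54 (SE 0.32, QL adjusted p = 0.0284). Its partners Nuf2 and Ndc80 had log2 fold changes of 1.26 and 0.78, and their PTX libraries were above both controls, without a call. With the replicate block all 5 kinetochore genes were called in processes, and Ndc80 in somata (adjusted p = 0.0239).

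Spindle and cytokinesis genes had the most calls, 5 of 6 in processes and 2 of 6 in somata. Prc1, which bundles the microtubules of the central spindle, had 132 and 136 reads in processes control and 328 and 323 reads in processes PTX. Its log2 fold change of 1.19 (SE 0.14, QL adjusted p = 0.00255) had the smallest p of the set in processes. In somata Prc1 was at 17.4 and 15.4 CPM in control and 25.5 and 25.9 CPM in PTX, a log2 fold change of 0.65 (SE 0.12, QL adjusted p = 0.0147). The 4 PTX libraries were thus above the 4 control libraries. Tpx2, which nucleates spindle microtubules and activates Aurora A, was at 11.2 and 12.9 CPM in processes control and 21.4 and 24.4 CPM in PTX, a log2 fold change of 0.93 (SE 0.18, QL adjusted p = 0.0204). In somata it was at 8.25 and 9.13 CPM in control and 12.4 and 16.6 CPM in PTX, a log2 fold change of 0.74 (SE 0.16, QL adjusted p = 0.0341). The remaining calls were in processes.

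Nusap1, a spindle microtubule binder, was at 4.01 and 4.46 CPM in processes control and 8.61 and 9.95 CPM in PTX, with a log2 fold change of 1.13 (SE 0.21, QL adjusted p = 0.0186). Racgap1 and Ect2 act together to switch on RhoA at the division plane. Racgap1 was at 5.13 and 5.99 CPM in processes control and 9.53 and 10.9 CPM in PTX, a log2 fold change of 0.88 (SE 0.19, QL adjusted p = 0.0321). Ect2 was at 5.24 and 6.11 CPM in control and 10.2 and 12.9 CPM in PTX, a log2 fold change of 1.03 (SE 0.24, QL adjusted p = 0.0395). Racgap1 and Ect2 lost the call when any processes library or either somata control library was left out. For Nusap1, Racgap1 and Ect2 the PTX libraries were above both controls and replicate 1 was the lower library of its group. In somata the same genes had log2 fold changes of 0.57, 0.38 and 0.53, none of them called; the replicate block gave adjusted p-values of 0.00851 for Nusap1, 0.0861 for Racgap1 and 0.0157 for Ect2.

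Anln, the scaffold of the contractile ring, was the exception within this group. It had 75 and 93 reads in somata control and 47 and 44 in somata PTX, levels of 3.19 and 3.64 against 1.69 and 1.86 CPM. In processes it had 16 and 19 reads in control and 32 and 30 in PTX, levels of 1.78 and 2.23 against 3.67 and 3.02 CPM. Both somata PTX libraries were thus below their controls, and both processes PTX libraries were above theirs. The log2 fold change was -0.94 in somata (SE 0.24, QL adjusted p = 0.0556; 0.005 with the replicate block) and 0.73 in processes (SE 0.30, QL adjusted p = 0.245).

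Top2a, the topoisomerase that untangles sister chromosomes, was at 54.3 and 63.5 CPM in processes control and 123 and 115 CPM in processes PTX. Its log2 fold change was 1.02 (SE 0.14, QL adjusted p = 0.00472). In somata its levels were 31.8 and 32.9 CPM in control and 41.6 and 55.0 CPM in PTX, a log2 fold change of 0.58 (SE 0.14) just outside the threshold, with a QL adjusted p of 0.0509 and 0.000417 with the replicate block. Somata PTX replicate 2 was the highest somata library, and without it the log2 fold change was 0.36, while without PTX replicate 1 it was 0.76 (QL adjusted p = 0.0331). Mki67, which coats mitotic chromosomes and is a common marker of cycling cells, was at 42.0 and 48.8 CPM in somata control, 52.7 and 71.0 CPM in somata PTX, 64.2 and 74.9 CPM in processes control and 101 and 114 CPM in processes PTX. PTX libraries were above controls in both compartments, and the QL adjusted p was 0.0576 for the log2 fold change of 0.63 in processes and 0.173 for that of 0.45 in somata. The block gave adjusted p-values of 8.1e-05 and 0.00158. Birc5, a passenger complex subunit, had log2 fold changes of 0.43 in processes and 0.61 in somata, with 15 to 28 reads in processes, and was not called.

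**Figure D2:**
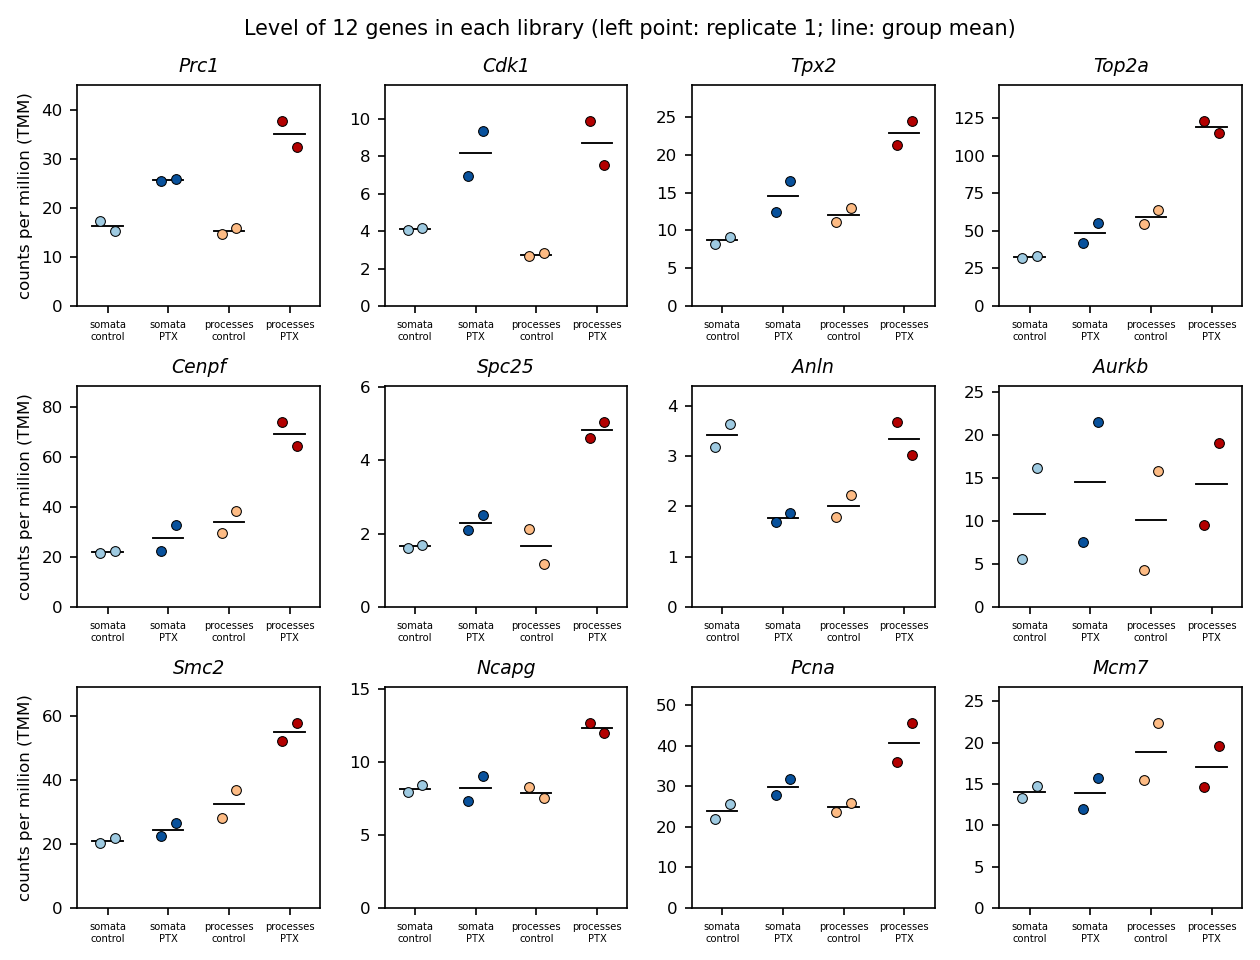
Level (y axis, CPM after TMM scaling, from 0) of 12 genes in each of the 8 libraries, by group (x axis); the left point of a pair is replicate 1 and the line is the group mean. Prc1, Cdk1, Tpx2 and Top2a are higher with PTX in both compartments, Anln is lower with PTX in somata and higher in processes, and Aurkb separates by replicate, with 131 and 413 reads in somata control.

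Condensin I compacts mitotic chromosomes and is built from Smc2, Smc4, Ncapd2, Ncapg and Ncaph. Smc2, which with Smc4 is also part of condensin II, was at 28.2 and 36.9 CPM in processes control and 52.4 and 57.8 CPM in PTX, a log2 fold change of 0.76 (SE 0.15, QL adjusted p = 0.0216). Smc4 was at 30.2 and 40.6 CPM in control and 48.9 and 53.5 CPM in PTX, with a log2 fold change of 0.53 and a QL adjusted p of 0.1, or 0.00294 with the block. PTX libraries were above controls for both genes, but for Smc4 the 2 controls differed by more than the gap between the groups. In somata the log2 fold changes were 0.22 for Smc2 and 0.35 for Smc4, and Smc4 was called with the block alone (adjusted p = 0.0407). Ncapg had 74 and 64 reads in processes control and 110 and 119 reads in PTX, a log2 fold change of 0.64 (SE 0.18, QL adjusted p = 0.0806; 0.0225 with the block). In somata Ncapg had 7.91 and 8.42 CPM in control and 7.30 and 9.06 CPM in PTX, with overlapping groups and a log2 fold change of -0.00. Ncaph and Ncapd2 had log2 fold changes of 0.69 and 0.23 in processes, and for Ncapd2 the groups overlapped in both compartments.

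Among replication genes Pcna, the sliding clamp of DNA polymerases, was called in processes, at 23.6 and 26.0 CPM in control and 36.1 and 45.6 CPM in PTX. The log2 fold change was 0.72 (SE 0.15, QL adjusted p = 0.0284), and in somata 0.32 without a call. In processes Pcna lost the call without processes control replicate 1, processes control replicate 2 or processes PTX replicate 2. The minichromosome maintenance genes Mcm2 to Mcm7 encode the helicase that unwinds DNA, and in processes the log2 fold changes of Mcm3 and Mcm4 were 0.83 and 0.73, those of Mcm2, Mcm5 and Mcm6 between 0.32 and 0.48. By the QL test 0 of these were called. Mcm7 was at 15.5 and 22.3 CPM in processes control and 14.6 and 19.6 CPM in PTX, with a log2 fold change of -0.14 (SE 0.22) in processes and -0.02 (SE 0.20) in somata. Its groups overlapped in both compartments, unlike those of the other 5 Mcm genes in processes. Rrm2, the subunit of ribonucleotide reductase made in S phase, was at 3.79 and 5.29 CPM in processes control and 7.23 and 9.85 CPM in PTX, with a log2 fold change of 0.92 (SE 0.26, QL adjusted p = 0.0818; 0.00557 with the block). The block called 4 replication genes in processes (Pcna, Rrm2, Mcm3 and Mcm4) and 5 in somata (the same genes and Mcm6).

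Whether PTX acted differently in the compartments was asked with the interaction, which takes the somata effect of PTX away from the one in processes. By the QL test 0 of the 40 genes and 0% of all tested genes passed, and the smallest adjusted p of any gene was 0.115. An unadjusted p below 0.05 was found for 6 of the 40 genes and for 572 genes in all, 4% of those tested. The likelihood ratio test and DESeq2 also called 0 of the 40, as did the replicate block, which called 0.105% of all tested genes. Estimates were above 0 for 34 of the 40 genes, with a median of 0.35 beside -0.01 for all tested genes. Both depend on single libraries: without somata PTX replicate 1 the median was 0.13 and 26 genes were above 0, without somata PTX replicate 2 it was 0.61 with 39, without processes control replicate 1 it was 0.21 with 28, without processes control replicate 2 it was 0.54 with 36, and without processes PTX replicate 2 it was 0.19 with 29. With all libraries that median was 0.48 for mitotic, 0.18 for condensin and 0.25 for replication genes. The smallest p-values belonged to Anln (1.68, SE 0.38), Prc1 (0.54, SE 0.18), Cenpf (0.71, SE 0.26) and Ncapg (0.64, SE 0.23), each with a QL adjusted p of 1. The larger number of calls in processes is therefore not shown to be a larger effect.

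Replicates differed in the same direction across much of the set. In somata PTX all 40 genes were higher in replicate 2 than in replicate 1, with a median log2 difference of 0.42, beside -0.02 for all tested genes. The count was 29 of 40 in somata control, 36 in processes control and 30 in processes PTX, with medians of 0.07, 0.26 and 0.18. Taken within replicate numbers, the median log2 difference between PTX and control in somata was 0.26 for replicate 1 and 0.54 for replicate 2. In processes it was 0.89 for replicate 1 and 0.68 for replicate 2. The median was thus above 0 in each of the 4 within-replicate comparisons and higher in processes than in somata for either number. What the replicate numbers mark is not stated.

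Processes and somata were also compared within each treatment, to ask on which side of the membrane the transcripts lie. In control cultures 8 of the 40 genes were higher in processes and 3 lower, while 25.8% of all tested genes were higher and 21.9% lower. The median log2 difference was 0.02, and the block gave 12 higher and 4 lower, beside 29.8% and 28% of all tested genes. Cenpe was at 9.90 and 9.95 CPM in somata and 18.5 and 25.4 CPM in processes, a log2 difference of 1.14 (SE 0.17, QL adjusted p = 0.000283). Top2a (0.86, SE 0.14), Smc4 (1.05, SE 0.16), Smc2 (0.62, SE 0.15), Mcm3 (0.73, SE 0.23) and Mcm6 (0.66, SE 0.21) were higher in processes too, with QL adjusted p-values from 0.000336 to 0.0247. These calls vary in stability. Mcm6 lost its call when any control library was left out (QL adjusted p from 0.0688 to 0.0974) and with upper quartile scaling (0.086). Mcm3 lost it with that scaling (0.078) and without somata control replicate 1 (0.141), processes control replicate 1 (0.0655) or processes control replicate 2 (0.119), and Smc2 without processes control replicate 2 (0.0659). Cdc20 was lower in processes, 2.01 and 2.47 CPM against 4.17 and 5.76 CPM, a log2 difference of -1.15 (SE 0.31, QL adjusted p = 0.0108; 0.0663 without somata control replicate 2 and 0.0828 without processes control replicate 1), as was Anln, at -0.77 (SE 0.27, QL adjusted p = 0.0392). The call of Anln was lost with DESeq2 (adjusted p = 0.152), with the control libraries alone (QL adjusted p = 0.0521) and when any control library or either somata PTX library was left out (QL adjusted p from 0.054 to 0.184). Ccnb1 was the remaining lower gene. The calls fell to 5 without somata control replicate 1 or processes control replicate 2, to 6 without somata control replicate 2 and to 7 without processes control replicate 1.

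In PTX cultures 18 of the 40 genes were higher in processes and 0 lower, beside 25.7% and 24% of all tested genes, and the median log2 difference was 0.45; the block gave 23 higher and 0 lower, beside 30% and 29.6% of all tested genes. Cenpe (1.63, SE 0.16), Cenpf (1.331, SE 0.18), Smc4 (1.24, SE 0.15), Smc2 (1.17, SE 0.15), Mcm3 (0.97, SE 0.21) and Rrm2 (0.63, SE 0.23) had the 2 largest called differences of their classes, with QL adjusted p-values from 1.59e-05 to 0.0373. Rrm2 lost its call with DESeq2 (adjusted p = 0.0729), with upper quartile scaling (QL adjusted p = 0.111), with 10 reads required in every library (0.052), without somata PTX replicate 1 (0.21) and without processes PTX replicate 2 (0.292). By class the calls were 10 of 27 mitotic, 3 of 5 condensin and 5 of 8 replication genes. The number of calls fell to 8 without somata PTX replicate 1 and to 12 without processes PTX replicate 2. Both compartment comparisons depend on the scaling, and why was not tested. Scaled by library size alone, all 40 genes were called lower in processes of control cultures and 39 in PTX cultures, as were 13271 and 13318 of the 14309 tested genes, whose median itself moved to -1.86 and -1.87. Upper quartile scaling moved it to -0.25 and -0.23 and gave 5 higher and 5 lower genes in control cultures, beside 2750 higher and 4704 lower among all tested genes, and 13 higher in PTX cultures, beside 2904. DESeq2, which differs in scaling and in test, gave 8 higher and 1 lower in control cultures. Relative to all tested genes, the median of the 40 was 0.02 against -0.05 in control cultures with TMM scaling and -1.79 against -1.86 with library size alone.

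Other genes of cell division were examined as lists. Of 58 other mitotic genes tested, 9 rose and 0 fell in processes, with a median log2 fold change of 0.68, and 5 rose and 1 fell in somata, with a median of 0.50. With the block 24 rose in each compartment, and 1 fell in somata. Of all tested genes the QL test called 1.64% up and 2.1% down in processes, and 2.09% and 1.5% in somata. With the block these shares were 5.1% and 6.09% in processes and 7.21% and 6.79% in somata. Among the called genes of this list, Pbk, a mitotic kinase, had the largest change in processes, 1.91 (SE 0.26, QL adjusted p = 0.0044). Pttg1, the securin that guards sister chromatids, followed at 1.82 (SE 0.41, QL adjusted p = 0.0369). Pttg1 had 6 and 10 reads in processes control and 24 and 37 in PTX, and it lost the call when any processes library or either somata control library was left out, with QL adjusted p-values from 0.0531 to 0.241. The largest called changes in somata were those of Ckap2 at 1.32 (SE 0.17, QL adjusted p = 0.0022) and the kinesin Kif18a at 1.18 (SE 0.16, QL adjusted p = 0.0032). Ckap2, which binds spindle microtubules, had 97 and 105 reads in somata control and 255 and 270 in somata PTX, and 59 and 60 in processes control against 145 and 142 in processes PTX. Its 2 groups are far apart in either compartment.

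Among 43 other replication genes tested, 2 rose in processes and 1 in somata, beside 1.64% and 2.09% of all tested genes, so the somata count is near the share of all genes. The medians were 0.40 and 0.21; the block gave 8 that rose and 1 that fell in processes and 9 that rose in somata. Rpa1, which covers single-stranded DNA, rose in both compartments, by a log2 of 0.47 in processes (SE 0.11, QL adjusted p = 0.0375) and 0.53 in somata (SE 0.10, QL adjusted p = 0.0179). Rrm1, the partner of Rrm2, rose in processes by 0.65 (SE 0.16, QL adjusted p = 0.0444). Both lost the call when any library of the compartment tested was left out, with QL adjusted p-values from 0.0881 to 0.254 in processes and, for Rpa1, from 0.117 to 0.155 in somata. In processes leaving out either somata control library also ended both calls, and for Rpa1 either somata PTX library. Foxm1 and Mybl2, which encode FoxM1 and B-Myb and were counted with the other mitotic genes, had log2 fold changes of 0.75 and 0.61 in processes and 0.27 and 0.44 in somata. The QL test called neither gene, and with the block Foxm1 was called in processes (adjusted p = 0.0304; Mybl2 0.0651). Of 16 E2F, pocket and MuvB proteins 0 were called by the QL test in either compartment, and 1 rose in somata with the block. Of 9 G1 cyclins and kinases 1 rose in processes, Ccnd2, at 655 and 797 CPM in control and 1246 and 1528 CPM in PTX, a log2 fold change of 0.93 (SE 0.17, QL adjusted p = 0.0138). Without processes control replicate 1 its adjusted p was 0.126, and without processes PTX replicate 2 it was 0.094. The block called 2 in processes and 1 in somata.

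Of 6 CDK inhibitors tested 1 rose in processes, Cdkn3, a phosphatase that acts on Cdk1 and Cdk2 and is itself transcribed with mitotic genes. It had 23 and 22 reads in control and 53 and 77 in PTX, a log2 fold change of 1.43 (SE 0.25, QL adjusted p = 0.0128), and its adjusted p was 0.0987, 0.0513 and 0.0857 without processes control replicate 1, control replicate 2 or PTX replicate 2. With the block 2 inhibitors rose in each compartment. Of 11 genes of cohesin and the Smc5/6 complex, which share the SMC design with condensin, 0 were called in processes and Pds5b fell in somata, at -0.46 (SE 0.10, QL adjusted p = 0.0376), a call lost when any somata library was left out (QL adjusted p from 0.122 to 0.304). The list's median was 0.10 in processes and -0.04 in somata.

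Markers of several cell types that such a culture can hold were measured in the same libraries. All 10 neuron markers passed the filter. Their sum, led by Map2, was 2751 and 2405 CPM in somata control, 2615 and 2315 in somata PTX, 5986 and 5552 in processes control and 5274 and 4469 in processes PTX. Without Map2 the other 9 summed to 1766 and 1518 CPM in somata control, 1754 and 1503 in somata PTX, 1293 and 1028 in processes control and 1338 and 1101 in processes PTX, where control and PTX overlap. The median log2 fold change of all 10 under PTX was -0.24 in somata and -0.23 in processes. By the QL test 2 genes were up and 1 down in somata, and 2 up in processes. The block gave 2 up and 5 down in somata and 3 up and 5 down in processes. Called by the QL test were Gad1, Gad2 and Rbfox3 in somata and Gad2 and Slc17a7 in processes, named here after their values were seen. Beside each marker list stand the shares of all tested genes. By the QL test these were 2.09% up and 1.5% down in somata, and 1.64% and 2.1% in processes. With the block they were 7.21% and 6.79% in somata, and 5.1% and 6.09% in processes. All 10 astrocyte markers passed the filter as well, although the cultures are labelled as neurons. Their sum, led by Gfap, was 4168 and 4563 CPM in somata control, 3247 and 4293 in somata PTX, 15030 and 13410 in processes control and 11520 and 12770 in processes PTX. In processes 7 of the 10 estimates were below 0. Without Gfap the other 9 markers summed to 3915 and 4032 CPM in processes control and 3827 and 3975 CPM in processes PTX, which overlap. The median log2 fold change was -0.14 in somata, where Gja1 fell (-0.61, SE 0.12, QL adjusted p = 0.0215), and -0.10 in processes, where 0 were called. With the block 2 fell in somata, and 1 rose and 1 fell in processes. Between compartments of control cultures, the QL test called 5 astrocyte markers higher in processes and 2 lower. For neuron markers these counts were 2 and 6, beside 25.8% and 21.9% of all tested genes. Such comparisons depend on the scaling, as given above. Which cells the RNA of the process side came from was not tested.

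The 6 markers of oligodendrocyte precursors, led by Olig1, summed to 257 and 377 CPM in somata control, 239 and 359 in somata PTX, 396 and 517 in processes control and 466 and 565 in processes PTX. Replicate 2 was higher in each group, control and PTX overlapped, and 0 genes were called in either compartment, or 1 lower in each with the block. Of 8 neural progenitor markers 7 passed the filter, and their sum, led by Vim, was 296 and 289 CPM in somata control, 275 and 317 in somata PTX, 511 and 459 in processes control and 580 and 601 in processes PTX. In processes the sum was higher in both PTX libraries. This held without Vim, at 286 and 272 CPM in processes control and 324 and 349 CPM in processes PTX. The list's median log2 fold change in processes was -0.03, with 3 estimates above 0 and 4 below, and 0 genes were called. With the block 2 rose and 1 fell in processes, and 1 fell in somata. Microglial markers were near the detection limit, with 0 of 10 past the filter and sums from 1.03 to 3.24 CPM, Cd68 being the most abundant. Cx3cr1 and Ptprc had 0 reads in each processes library.

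Mural and fibroblast markers, 6 tested and led by Col3a1, summed to 120 and 47.5 CPM in somata control, 132 and 68.4 in somata PTX, 67.8 and 35.6 in processes control and 92.9 and 39.7 in processes PTX. Here replicate 1 was higher in each group; 0 genes were called, or 3 higher in somata and 1 in processes with the block. Endothelial markers were low, at 4.93 and 3.25 CPM in somata control, 9.42 and 8.47 in somata PTX, 1.90 and 2.35 in processes control and 3.90 and 2.11 in processes PTX, and Cldn5 had 0 reads in all 8 libraries. Kdr, the only endothelial marker tested, rose in somata with a log2 fold change of 1.41 (SE 0.24, QL adjusted p = 0.0102). The 5 ependymal markers, led by Dnah11, summed to 78.1 and 53.2 CPM in somata control, 64.9 and 54.8 in somata PTX, 46.4 and 45.0 in processes control and 40.1 and 41.3 in processes PTX, with 0 calls. The part of each of these cell types in the PTX result was not tested.

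**Figure D3:**
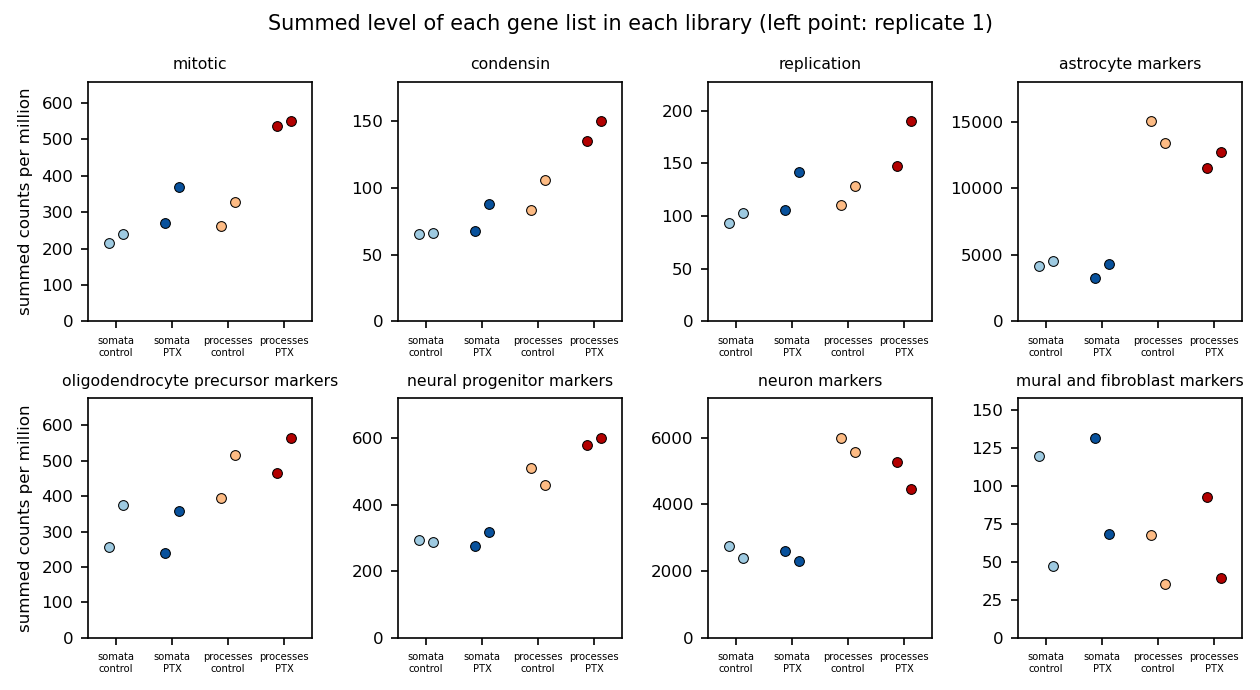
Summed level (y axis, CPM after TMM scaling, from 0) of the 3 gene classes and of 5 marker lists in each library, by group (x axis), with replicate 1 as the left point. The 3 classes are higher in both processes PTX libraries than in the controls, the astrocyte sum is lower there but overlaps without Gfap (3915 and 4032 CPM in control, 3827 and 3975 CPM in PTX), and mural and fibroblast markers are higher in replicate 1 of each group.

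Because most estimates were above 0 in processes, the genes' promoters were scanned for elements known from cell cycle genes. RefSeq promoter windows of 300 bases (250 before and 50 after the gene's start, build GRCr8) were found for 33 of the 40 genes; Aurkb, Ccna2, Mcm4, Racgap1, Rrm2, Tpx2 and Ube2c had none. Both strands were searched for 5 motifs. The CHR core TTTGAA occurred in 18.3% of all 33469 windows, and in 17 of 22 mitotic, 4 of 5 condensin and 1 of 6 replication genes. Its variant TTCGAA occurred in 1.69% of all windows and in Bub1b, Top2a and Mcm7. The E2F sequences TTTGGCGC or TTTCGCGC occurred in 0.792% of all windows, in 5 of 6 replication genes, 1 mitotic gene and 0 condensin genes. CCAAT was found in 37.5% of all windows and in 14 mitotic, 4 condensin and 5 replication genes, and GGGCGG in 33.1% of all windows and in 16, 2 and 5 genes. Of the 12 genes called in processes that have a window, 9 hold TTTGAA. That is near the share of mitotic genes whether called or not, 17 of 22, so no link between the motif and the call is shown. A match shows only that the letters are present, and no test was made.

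The whole windows of Prc1 and Mcm3 are given as the mitotic and the replication gene with the smallest p in processes among those that hold TTTGAA and an E2F sequence, respectively. Prc1 lies at chr1:143659231-143659530, on the plus strand, and Mcm3 at chr9:30733697-30733996, on the minus strand. Capitals mark TTTGAA in Prc1, TTTCGCGC in Mcm3 and CCAAT, or its reverse complement, in both.
Prc1: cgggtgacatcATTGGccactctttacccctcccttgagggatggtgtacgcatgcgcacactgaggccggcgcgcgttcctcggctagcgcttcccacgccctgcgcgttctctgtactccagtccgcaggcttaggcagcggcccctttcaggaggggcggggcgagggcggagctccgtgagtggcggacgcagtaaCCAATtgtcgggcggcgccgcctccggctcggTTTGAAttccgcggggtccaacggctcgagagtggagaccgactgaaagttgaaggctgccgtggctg
Mcm3: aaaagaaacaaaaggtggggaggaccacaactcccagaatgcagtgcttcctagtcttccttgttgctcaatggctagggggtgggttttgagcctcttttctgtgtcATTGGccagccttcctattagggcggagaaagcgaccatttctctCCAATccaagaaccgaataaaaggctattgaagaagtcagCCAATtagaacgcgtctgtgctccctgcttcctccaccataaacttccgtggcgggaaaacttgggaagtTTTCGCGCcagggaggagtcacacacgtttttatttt

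For the other called genes that hold TTTGAA, the 30 bases around the match nearest the gene's start are shown, with the match in capitals (TTCAAA where it lies on the opposite strand). They are Cdk1 chr20:19265265-19265294 (plus), Bub1b chr3:126017051-126017080 (plus), Cenpf chr13:103760867-103760896 (minus), Spc25 chr3:74396758-74396787 (minus), Nusap1 chr3:127057292-127057321 (plus), Ect2 chr2:111966612-111966641 (minus), Top2a chr10:84473098-84473127 (minus) and Smc2 chr5:71602290-71602319 (plus). In Bub1b, Cenpf, Ect2 and Nusap1 the match begins within 10 bases of the annotated start, while in Smc2 it begins 103 bases upstream.
Cdk1: taccgcggtgagTTTGAAactgctggcact
Bub1b: ggagacgttaaaTTTGAAagttggcggccc
Cenpf: ggccgcgggcagTTTGAAtcgctcgtgctg
Spc25: ggcgctccggagTTTGAAattgaaagtcgg
Nusap1: ggtggcgccagtTTTGAAcggtgctgtttt
Ect2: gcgtctgggtttTTTGAAtcggaggcggta
Top2a: gctagatgaatgTTCAAAtgaaactaggga
Smc2: ctcgcgccgaaaTTCAAAgaaacagttccg

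The remaining E2F matches are shown in the same way, with overlapping matches on both strands capitalised as one run. They are Mcm2 chr4:122918086-122918115 (minus), Mcm5 chr19:13488593-13488622 (plus), Mcm6 chr13:42404469-42404498 (minus), Mcm7 chr12:22163212-22163241 (minus) and Cdk1 chr20:19265149-19265178 (plus). Mcm7, whose control and PTX groups overlapped, holds the same TTTCGCGC as Mcm3, and the QL test called neither gene in processes. A link between the E2F sequence and the PTX effect was not tested.
Mcm2: acccggtTTTCGCGCGAAAacccgtggcag
Mcm5: tcagaagTTTCGCGCCAAAacgtcccgcct
Mcm6: gtctgctTTTGGCGCGAAAttagcgtgtgg
Mcm7: gggtgacgacgTTTCGCGCcaatttcggtt
Cdk1: tttccgctcccTTTCGCGCtctgcactccc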

How the data were processed

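Counts per gene symbol were analysed as deposited. The authors trimmed the reads, mapped them and summed featureCounts counts by symbol; the submitters' processing notes name STAR and the build Rnor_6.0, whereas the study's methods name Subread, so the aligner is uncertain. The kit preserves strand, but the strand setting of the counting is not given, so reads of overlapping, antisense or near-identical genes may be mixed. The authors also deposited their own PTX comparisons (log2 fold changes, log2 CPM, likelihood ratios as a score, p-values and FDR), which were not used.

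Genes with over 20 reads in 2 or more of the 8 libraries entered edgeR 4.0.16 (R 4.3.3; TMM, glmQLFit and glmQLFTest on all libraries, 4 groups), with Benjamini-Hochberg adjustment over all genes and a threshold of 0.05. Standard errors are the log2 fold change over the square root of F. The fits were tested on simulated data, with no result given here. DESeq2 1.42.0 was an alternative, with others given at the end. That model has no replicate term; an alternative took the replicate number as a block, because replicate differences correlated in all pairs of groups (r from 0.274 to 0.54 across tested genes), and the labels do not say what the numbers mark. The common dispersion was 0.0132 without and 0.00459 with the block.

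Named with full statistics were called genes of each PTX comparison (at most the 12 with the largest change; with fewer than 4 calls, the 4 smallest p-values), the 2 largest called differences per class, direction and compartment comparison, the 4 smallest p-values of the interaction, and the 2 largest called changes per list of other cell division genes; other genes were named after their values were seen. Members, lists and motifs were chosen with earlier results of these data known. Promoter windows came from RefSeq (GRCr8), a later assembly than that used for mapping. A single marker list is not reported here.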

Additional observations from a re-analysis of the deposited data

Results flagged for a closer look

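Anln was lower in both somata PTX libraries and higher in both processes PTX libraries than in their controls, but neither effect passed edgeR's quasi-likelihood test with Benjamini-Hochberg adjustment (-0.94, adjusted p = 0.0556 in somata; 0.73, adjusted p = 0.245 in processes). With the replicate block the adjusted p was 0.005 in somata and 0.166 in processes. The difference between the 2 effects, processes less somata, was 1.68 on the log2 scale (SE 0.38, adjusted p = 1 by edgeR's quasi-likelihood test with Benjamini-Hochberg adjustment), so the difference did not pass the test; with the replicate block it was 1.67 (adjusted p = 0.116). It rests on 16 to 32 reads in each processes library.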

How the results depend on the processing

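In PTX against control in somata the 3 calls became 6 with the likelihood ratio test, 10 without a filter on low counts, 5 with at least 10 reads required in every library and 20 with the replicate block, fell to 2 with only the somata libraries (Tpx2 lost), and ranged from 0 to 4 over fits that each left out 1 library. In processes the 14 calls became 22 with the likelihood ratio test, 24 without a filter and 25 with the replicate block, and fell to 10 with scaling by library size alone (Cenpe, Ect2, Smc2 and Pcna lost, the last 2 being the condensin and the replication call) and to 13 with only the processes libraries (Spc25 and Racgap1 lost). They ranged from 1 to 18 with 1 library left out. The gains with the likelihood ratio test, without a filter and with the block accompany more calls in general. Over all tested genes the 299 that rose in somata became 541, 652 and 1031 in these fits. The 235 in processes became 424, 525 and 730. With at least 10 reads required in every library, fewer of all tested genes rose in somata, 252 of 12578. Processes against somata gave 40 calls in control cultures and 39 in PTX cultures when scaled by library size alone, all lower in processes, and with 1 library left out 5 to 12 and 8 to 22. The interaction gave 0 calls under each alternative that could be run; it cannot be fitted from the libraries of 1 compartment. Scaling by library size alone also reversed named genes: in control cultures Cenpe (-0.65), Top2a (-0.94), Smc4 (-0.74), Smc2 (-1.17), Mcm3 (-1.08) and Mcm6 (-1.14), and in PTX cultures Cenpe (-0.20), Cenpf (-0.50), Smc4 (-0.59), Smc2 (-0.66), Mcm3 (-0.85) and Rrm2 (-1.18). The shift of all genes under that scaling, given with the compartment comparison, accompanies these reversals; the cause of the other changes was not tested. Over the named genes and alternatives 607 values kept direction and side of the threshold, 118 lost and 6 gained the call in the same direction. The requirement of 10 reads in every library leaves out Plk1. A fit without the genes of the mitochondrial genome, chosen after seeing the data, gave the counts reported for the 40 genes in all comparisons. Over all tested genes 301 rose in somata and 239 in processes in that fit. Depth limits the processes side, where 13 and 9 genes had fewer than 30 reads in the control libraries.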
